A study of Mus musculus with 11 samples.

Results

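The endoplasmic reticulum (ER) is where secreted and membrane proteins are folded, and 35 genes that fold them there, dispose of misfolded ones or sense folding stress were examined in EC4 cells, a mouse liver cancer line. They were chosen by symbol, as ER stress sensors, ER chaperones, disulfide isomerases, ER-associated degradation genes, translocon subunits and 2 phosphatase subunits. No measured value entered the rule, but earlier results of these data were known when the genes were chosen. All 35 were found among 55416 gene identifiers. Of these genes 34 had a mean of at least 10 normalized counts and were among the 12909 genes tested, and Derl3 fell under that level. Cells with the genotype label MYC on or MYC off (Myc.high or Myc.low in the library names) spent 24 h in DMEM with 10 or 200 µM methionine after growth at 200 µM. MYC-on cells at 200 µM gave 2 libraries, numbered 2 and 3, and MYC-off cells at 200 µM, MYC-on cells at 10 µM and MYC-off cells at 10 µM gave 3 each. Replicate 1 of MYC-on cells at 200 µM was not analysed here. All groups come from 1 line, and the sources used here do not give the construct or the agent that sets the MYC state.

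When unfolded proteins build up in the ER, sensors in its membrane start the unfolded protein response. IRE1, encoded by Ern1, removes a short intron from Xbp1 mRNA so that it encodes an active transcription factor. ATF6 is cut in the Golgi and its released part enters the nucleus, where ATF6 and XBP1 raise chaperone and degradation genes. PERK, encoded by Eif2ak3, phosphorylates eIF2α, which lowers translation in general while ATF4 is made, and PPP1R15A and PPP1R15B direct the phosphatase that reverses it. Hepatocytes secrete most plasma proteins and so carry a large folding load. Counts per gene cannot tell spliced from unspliced Xbp1, nor do they report protein or phosphorylation.

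Each library held 10858936 to 13085689 reads on genes. Replicates differed by more than sampling noise (chi-square per gene 1.40 to 2.71) but little beyond it, with a biological coefficient of variation of 2.78%. Nothing in the labels says that replicates were separate cultures or names a batch, so p-values measure how libraries of a group vary, which may be technical only. Mouse Myc ranged from 2014 to 2164 normalized counts in MYC-on and 1106 to 1168 in MYC-off libraries at 200 µM, but from 291 to 366 and 320 to 344 at 10 µM. Its difference at 10 µM was −0.00 on the log2 scale (adjusted p = 0.949), so directions between MYC states at 10 µM rest on the labels. A transgene of another species would be counted there only in part. The medium of each library was likewise taken from its label, and no value here measures methionine. Of 11 hepatocyte markers none reached a mean of 10 normalized counts, their sum was 0 to 3.04 per library, and Alb, Serpina1a, G6pc, Cps1, Cyp3a11 and Cyp2e1 were at 0 reads in all libraries. Hepatocyte genes of the labelled tissue were thus at or near 0. Of 5 fetal liver markers only 1, Afp, passed the level for testing, and H19, Igf2, Gpc3 and Dlk1 had 0 to 2 reads per group. Of the biliary markers 4 of 5 were tested (Epcam was at 0 reads), and their summed level was 5534 to 5617 in MYC-on and 20195 to 20534 in MYC-off libraries at 200 µM, and 18456 to 19690 and 35242 to 35849 at 10 µM. Of 6 macrophage and leukocyte markers 3 were tested, with sums of 644 to 674, 919 to 963, 1061 to 1133 and 1302 to 1413 in the same order, while the defining marker Ptprc was at 0 reads. Single genes differed from these sums. Spp1, Krt19 and Krt7 rose at 10 µM in both MYC states, while Sox9 fell (log2 −1.79 in MYC-on and −0.74 in MYC-off cells). Krt19 was lower in MYC-on cells at 200 µM (−1.14) but higher at 10 µM (0.12), and so was Cd68 (−1.63 and 1.15). Cd68 and Csf1r rose at 10 µM in both states, while Cd14 fell in MYC-on cells (−0.91) and did not pass in MYC-off cells. Mitochondrially encoded transcripts took 0.793% to 1.74% of reads, less in both MYC-on than in both MYC-off groups. These markers and shares move with the groups compared below, and their part in the results was not tested.

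At 200 µM methionine most of the ER genes were higher in MYC-on than in MYC-off cells. Of the 34 tested, 21 were higher and 6 lower, with a median log2 difference of 0.28, in a comparison that called 74.4% of all genes, 36.8% higher and 37.6% lower, with a median of −0.00. At 10 µM there were 9 higher and 16 lower in MYC-on cells, with a median of −0.07 (71.5% of all genes called, 35.7% higher and 35.8% lower, median 0.00). In MYC-on cells 10 µM methionine went with 23 lower and 6 higher ER genes and a median of −0.31 (75.8% of all genes called, 37.9% in each direction, median −0.00). In MYC-off cells it went with 20 higher and 10 lower and a median of 0.20 (59.4% of all genes called, 29.4% higher and 29.9% lower, median 0.00). The share of ER genes called in either direction was 79.4%, 73.5%, 85.3% and 88.2% in these comparisons. Comparisons that share a group also share its libraries. Standard errors of the log2 differences were 0.027 to 0.11.

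The methionine response of MYC-on cells lay below that of MYC-off cells for 25 of the 34 genes and above it for 3, as tested by the interaction term, with a median of −0.44. Of all genes 60.4% passed that test, 31.0% above and 29.4% below, with a median of 0.01. Taking both responses together, which share no libraries, 10 genes fell in MYC-on and rose in MYC-off cells at 10 µM: Xbp1, Hspa5, Manf, Calr, Pdia3, Pdia6, Creld2, Derl2, Sec61a1 and Sec61b. That is 29.4% of the ER genes, and 3.43% of all genes tested did the same. None rose in MYC-on and fell in MYC-off cells, as 3.32% of all genes did. A further 10 ER genes fell in both MYC states (29.4%, all genes 21.6%), namely Ern1, Atf6, Hyou1, Dnajb9, Dnajc3, Herpud1, Edem3, Sel1l, Derl1 and Ppp1r15a. Sdf2l1, P4hb, Pdia4, Edem1, Edem2 and Os9 rose in both (17.6%, all genes 21.6%). Some of these memberships rest on small changes: the rise of Hspa5 in MYC-off cells (log2 0.07) lost its call in 6 of the alternative fits, with adjusted p of 0.0513 to 0.181, the rise of Os9 in MYC-off cells in 5, and the fall of Sec61b in MYC-on cells and of Dnajc3 in MYC-off cells in 1 each. The plot of the methionine response in the 2 MYC states shows these classes as quadrants.

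**Figure D1:**
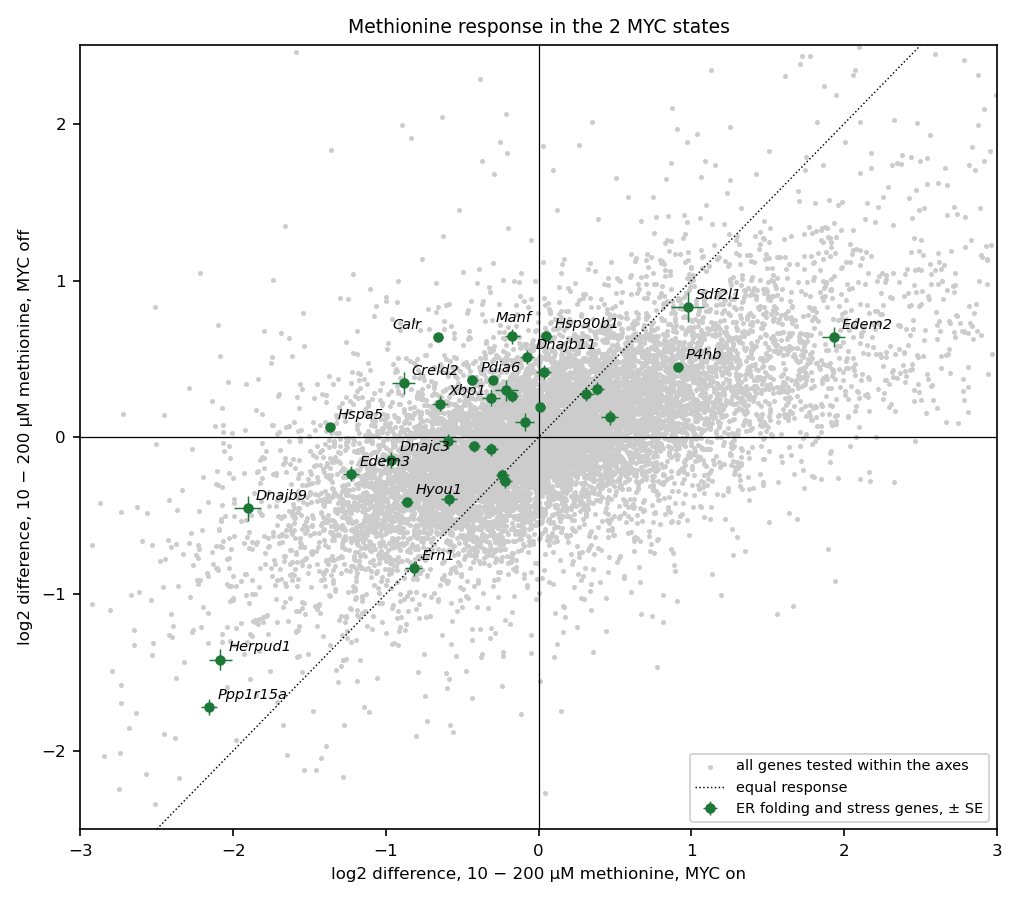
Each green point is 1 of 34 tested ER genes with its standard error. The horizontal axis is the log2 difference of 10 minus 200 µM methionine in MYC-on cells, the vertical axis the same in MYC-off cells, grey points are all genes tested that lie within the axes, and the dotted line marks equal responses. Calr and Creld2 lie in the upper left, down in MYC-on and up in MYC-off cells, and Hspa5 lies there at only 0.07 on the vertical axis. Herpud1 and Ppp1r15a lie far down in both and Edem2 and Sdf2l1 are up in both.

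Summed over all 35 genes, the ER genes took 0.937% ± 0.0102 of reads in MYC-on cells (SD, n = 2) and 0.701% ± 0.00533 in MYC-off cells (SD, n = 3) at 200 µM. At 10 µM the share was 0.801% ± 0.00719 in MYC-on and 0.830% ± 0.00299 in MYC-off cells (SD, n = 3 each). The sums of the 2 MYC states thus lay far apart at 200 µM and close together at 10 µM. Single genes did not all do so, as 9 were higher and 16 lower in MYC-on cells at 10 µM (35.7% and 35.8% of all genes tested). P4hb averaged 21043 normalized counts in MYC-on and 12327 in MYC-off cells at 10 µM, where all 35 genes summed to 96449 and 95993. Hspa5 alone made up 19.3% of these reads in MYC-on cells at 200 µM and 9.47%, 9.04% and 8.48% in MYC-off cells at 200 µM, MYC-on cells at 10 µM and MYC-off cells at 10 µM. In bulk libraries, fewer cells of a type and less RNA per cell cannot be told apart, and all values are relative to the other genes of the library. The highest group mean fell in MYC-on cells at 200 µM for 17 of 34 genes (50%, all genes 33.9%), and the lowest in MYC-off cells at 200 µM for 13 (38.2%, all genes 16.3%). Between its highest and lowest group mean an ER gene differed by 1.14 to 5.60 times, with a median of 1.78 times, and 10 of 34 differed by at least 2 times.

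**Figure D2:**
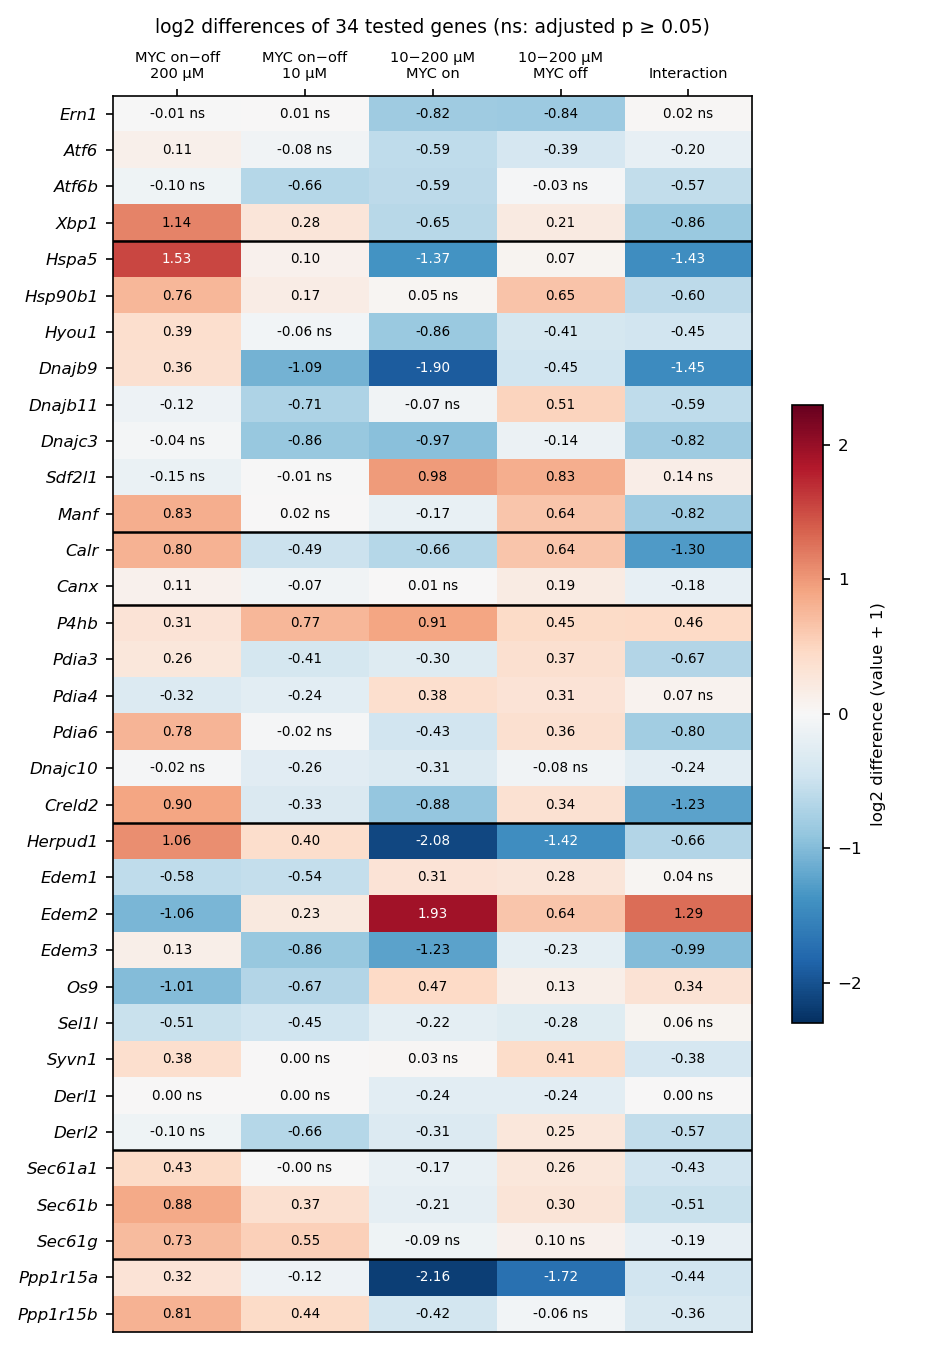
Each row is 1 of 34 tested ER genes in blocks by role, from sensors at the top to phosphatase subunits at the bottom, and each column 1 comparison. Colour and number give the log2 difference, red for higher and blue for lower in the group named first, and ns marks an adjusted p of 0.05 or more. The column of the interaction is blue in 25 called rows and red in 3, and the widest changes are those of Herpud1, Ppp1r15a, Dnajb9, Hspa5 and Edem2.

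Promoter stretches are shown because some of these genes hold a short sequence known to bind a factor of this response. RefSeq windows of the build GRCm38.p6, from 250 bases before to 50 after the annotated start, were at hand for 29 of the 35 genes. Atf6, Manf, Derl1, Hyou1, Sec61a1 and Ppp1r15b were not among them. The ER stress response element, CCAAT and CCACG with any 9 bases between them, to which ATF6 binds with the factor NF-Y, was searched on both strands. It was present in 9 of the 29 genes (31.0%) and in 39 of all 32851 windows (0.119%). Its second form, ATTGG and CCACG with any 1 base between them, stood in Herpud1 and Dnajb11 and in 12 of all windows (0.0365%). Both forms end in CCACG, and ATTGG is CCAAT read on the other strand, but no matches in these genes overlapped. Capitals below mark the matches, read 5′ to 3′ along the gene, so that a match on the other strand begins with CGTGG and ends with ATTGG.
Hspa5: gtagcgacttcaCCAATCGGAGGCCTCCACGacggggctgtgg
Hsp90b1: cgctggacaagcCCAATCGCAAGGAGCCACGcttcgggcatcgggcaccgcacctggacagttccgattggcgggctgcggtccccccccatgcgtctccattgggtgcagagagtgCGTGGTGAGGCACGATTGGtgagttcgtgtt
Dnajc3: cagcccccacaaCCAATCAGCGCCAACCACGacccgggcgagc
Calr: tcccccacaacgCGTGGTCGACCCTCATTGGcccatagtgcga
Canx: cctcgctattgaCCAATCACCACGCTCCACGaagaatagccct
Pdia6: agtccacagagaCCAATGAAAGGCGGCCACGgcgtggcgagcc
Creld2: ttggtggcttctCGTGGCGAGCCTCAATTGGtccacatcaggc
Syvn1: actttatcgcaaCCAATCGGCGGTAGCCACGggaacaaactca
Derl3: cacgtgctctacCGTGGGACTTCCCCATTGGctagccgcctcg
Herpud1: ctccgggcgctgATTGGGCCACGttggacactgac
The stretch of Hsp90b1 holds 2 matches, 1 on each strand. The match of Dnajb11 is ATTGGCCCACG, just after its annotated start, while the others lie upstream. Counted from the annotated start as 0, the match of Hspa5 ran from −65 to −47, that of Syvn1 from −44 to −26, that of Pdia6 from −98 to −80 and that of Herpud1 from −52 to −42. Plus-strand stretches lie at chr2:34772013-34772055 for Hspa5, chr14:118937815-118937857 for Dnajc3, chr12:17266479-17266521 for Pdia6, chr15:88819508-88819550 for Creld2, chr19:6046520-6046562 for Syvn1, chr10:75893230-75893272 for Derl3 and chr8:94386365-94386399 for Herpud1. Minus-strand stretches lie at chr10:86705521-86705668 for Hsp90b1, chr8:84847063-84847105 for Calr and chr11:50325788-50325830 for Canx. The unfolded protein response element TGACGTGG and the CHOP-ATF4 element TGATGNAAT had no match in the 29 genes, against 0.676% and 0.965% of all windows. The E-box CACGTG, bound by MYC among other factors, stood in Atf6b, Calr, Derl3 and Dnajb9 (13.8%, all windows 7.15%). A match describes letters only, and no binding was measured here. Forms with other letters or outside the window were not counted, so a window without a match does not show that the gene lacks the element. The elements were searched because they are known from this response, so the shares only describe the windows and were not tested.

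The 8 tested carriers of the first form were Hspa5, Hsp90b1, Dnajc3, Calr, Canx, Pdia6, Creld2 and Syvn1. At 200 µM 7 were higher in MYC-on cells (36.8% of all genes tested), Canx not without replicate 3 of MYC-on cells, and Dnajc3 did not pass. In MYC-off cells 7 rose at 10 µM (29.4% of all genes) and Dnajc3 fell, but the rise of Hspa5 and the fall of Dnajc3 lost their calls in some alternative fits. In MYC-on cells 5 fell (37.9% of all genes) and Hsp90b1, Canx and Syvn1 did not pass. The interaction passed below 0 for all 8 (29.4% of all genes), with a median of −0.81. Of the 20 tested genes whose window lacked the first form, 12 had an interaction below 0, 3 above and 5 did not pass, with a median of −0.34. These counts are a description, and no test of the split was made.

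The mRNAs of the sensors and of their transcription factor Xbp1 did not move as 1 block. At 200 µM Xbp1 and Atf6 were higher in MYC-on cells, and Ern1 and Atf6b did not pass. At 10 µM methionine all 4 fell in MYC-on cells (37.9% of all genes tested). In MYC-off cells at 10 µM Ern1 and Atf6 fell, Xbp1 rose and Atf6b did not pass. Xbp1 stood at 1889.7 and 1962 normalized counts in MYC-on and 846, 889 and 890.4 in MYC-off libraries at 200 µM, and at 1283, 1285 and 1130.0 in MYC-on and 1014, 1019.9 and 1012 in MYC-off libraries at 10 µM. No groups overlapped, and the order was MYC-on at 200 µM, MYC-on at 10 µM, MYC-off at 10 µM and MYC-off at 200 µM. Xbp1 was 2.20-fold higher in MYC-on cells at 200 µM (log2 1.14, SE 0.052, adjusted p = 4.45e-21) and 0.28 (SE 0.046) higher on the log2 scale at 10 µM. Lower methionine moved it by −0.65 (SE 0.052) in MYC-on and 0.21 (SE 0.046) in MYC-off cells (interaction −0.86, SE 0.070, adjusted p = 2.97e-13).

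Normalized counts of Ern1 were 1321 and 1216 (MYC-on) and 1321, 1245 and 1272 (MYC-off) at 200 µM, and 692, 747 and 717 (MYC-on) and 736, 722 and 689.6 (MYC-off) at 10 µM. Both MYC states overlapped in each medium, and every library at 200 µM lay above every library at 10 µM. Ern1 fell by 0.82 in MYC-on (SE 0.054) and 0.84 in MYC-off cells (SE 0.048) on the log2 scale, and the interaction was 0.02 with a 95% interval of −0.13 to 0.16 (adjusted p = 0.834). At 200 µM Atf6 stood at 1184 and 1244 in MYC-on and 1125, 1169.6 and 1069 in MYC-off libraries, against 818, 784 and 822 and 842, 866 and 854 at 10 µM. Libraries at 200 µM again lay above those at 10 µM, with log2 changes of −0.59 (SE 0.052) in MYC-on and −0.39 (SE 0.046) in MYC-off cells. The difference of Atf6 between MYC states at 200 µM was small (0.11, SE 0.052, adjusted p = 0.0435) and its adjusted p was 0.285, 0.0667 and 0.193 without replicate 3 of MYC-on, replicate 1 of MYC-off or replicate 3 of MYC-off cells at 200 µM, and 0.0568 to 0.109 with edgeR, DESeq2, TMM scaling, the replicate block or no filter. Its interaction (−0.20, SE 0.069, adjusted p = 0.0145) had adjusted p of 0.0879 and 0.0536 without replicate 3 of MYC-on or of MYC-off cells at 200 µM. Atf6b encodes a relative of ATF6 that is processed in a like way. Normalized counts of Atf6b were 1133 and 1002 (MYC-on) and 1143, 1093 and 1181 (MYC-off) at 200 µM, and 698, 745 and 675 (MYC-on) and 1096, 1151 and 1108 (MYC-off) at 10 µM. The 3 MYC-on libraries at 10 µM lay below the other 8, and the rest overlapped. The interaction of Atf6b was −0.57, SE 0.075, adjusted p = 3.32e-08, and its difference at 200 µM, −0.10 with an adjusted p of 0.121, passed without replicate 2 of MYC-on cells (−0.18, adjusted p = 0.0144).

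Hspa5, Hsp90b1, Manf and Hyou1 were all higher in MYC-on than in MYC-off cells at 200 µM. Of the 8 chaperones and co-factors 5 were higher in MYC-on cells at 200 µM (36.8% of all genes tested), 1 was lower (37.6%) and 2 did not pass. The interaction passed below 0 for 7 (29.4% of all genes). Hspa5, which encodes BiP, the chaperone that also holds the sensors inactive, had the widest difference between MYC states of all 34 genes. Hspa5 stood at 22294 and 22703 normalized counts in MYC-on and 7585, 7868 and 7879.7 in MYC-off libraries at 200 µM, and at 8711, 8846 and 8597 in MYC-on and 8229, 8122 and 8082 in MYC-off libraries at 10 µM. The MYC-on libraries at 200 µM stood far above all others, and the other groups lay close together without overlap. Hspa5 was 2.89-fold higher in MYC-on cells at 200 µM (log2 1.53, SE 0.030, adjusted p = 3.46e-32) and 1.07-fold higher at 10 µM (log2 0.10, SE 0.027, adjusted p = 0.00162). In MYC-on cells it fell by 1.37 on the log2 scale at 10 µM (SE 0.030), and the interaction was −1.43, SE 0.041, adjusted p = 1.81e-26. Its change in MYC-off cells, 0.07 (SE 0.027, adjusted p = 0.0335), had an adjusted p of 0.181 without replicate 1 of MYC-off cells at 200 µM and of 0.117, 0.0693 and 0.0513 without replicate 1, 2 or 3 of MYC-off cells at 10 µM, and of 0.0661 without a filter and 0.0839 with TMM scaling.

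Hsp90b1 encodes the ER member of the HSP90 family. Normalized counts of Hsp90b1 were 7509 and 8035 (MYC-on) and 4454, 4747 and 4532 (MYC-off) at 200 µM, and 8048, 8114 and 7976 (MYC-on) and 7163, 7108 and 7233 (MYC-off) at 10 µM. MYC-off libraries at 200 µM were lowest, and both MYC-on groups overlapped. Hsp90b1 was 0.76 (SE 0.034) higher on the log2 scale in MYC-on cells at 200 µM and 0.65 (SE 0.030) higher at 10 µM than at 200 µM in MYC-off cells, while in MYC-on cells the response was 0.05 (SE 0.034), with an adjusted p of 0.174 that became 0.0281 (log2 0.10) without replicate 3 of MYC-on cells at 200 µM. Manf encodes a secreted and ER-retained factor that binds BiP. Manf stood at 1644 and 1674 in MYC-on and 896, 914 and 987 in MYC-off libraries at 200 µM, and at 1524, 1513 and 1384 in MYC-on and 1388, 1511 and 1472 in MYC-off libraries at 10 µM. MYC-off libraries at 200 µM were again lowest and the 2 groups at 10 µM overlapped. Manf differed by 0.83 (SE 0.051) between MYC states at 200 µM and by 0.02 (SE 0.046) at 10 µM (95% interval −0.08 to 0.11). Hyou1 encodes a large ER chaperone that serves BiP as an exchange factor. At 200 µM Hyou1 stood at 3565 and 3537 in MYC-on and 2730.0, 2725 and 2696 in MYC-off libraries, against 1957, 1909 and 2001 and 2022, 2087 and 2017 at 10 µM. Both groups at 200 µM lay above both at 10 µM. Hyou1 fell by 0.86 in MYC-on (SE 0.038) and 0.41 in MYC-off cells (SE 0.034), with an interaction of −0.45, SE 0.051, adjusted p = 1.32e-09.

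The DNAJ co-chaperones, which hand clients to BiP and start its ATPase, changed in several ways. Normalized counts of Dnajb9 were 519 and 626 (MYC-on) and 421, 449 and 462 (MYC-off) at 200 µM, and 154, 145 and 156 (MYC-on) and 351, 330.2 and 293 (MYC-off) at 10 µM. The 3 MYC-on libraries at 10 µM lay far below the rest, and no groups overlapped. Dnajb9 fell 3.78-fold in MYC-on cells at 10 µM (log2 −1.90, SE 0.090, adjusted p = 1.01e-20) and 1.37-fold in MYC-off cells (log2 −0.45, SE 0.080, adjusted p = 7.34e-06), and its interaction of −1.45 (SE 0.12) was the lowest of the 34 genes. It was higher in MYC-on cells at 200 µM (0.36, adjusted p = 5.12e-04), but not past the threshold without replicate 3 of that group (0.22, adjusted p = 0.0689), and lower by 1.09 on the log2 scale at 10 µM. At 200 µM Dnajc3 stood at 1044 and 1011 in MYC-on and 1123, 1004 and 1045 in MYC-off libraries, against 522, 502 and 554 and 946, 972 and 952 at 10 µM. Dnajc3, whose product is also known as an inhibitor of eIF2α kinases, was lowest in MYC-on cells at 10 µM, −0.97 (SE 0.056) against 200 µM, and the groups at 200 µM overlapped. Its drop in MYC-off cells was −0.14 (adjusted p = 0.0140) and −0.10 (adjusted p = 0.129) without replicate 1 of MYC-off cells at 200 µM. Dnajb11 averaged 1149.6 ± 36.9 in MYC-on (SD, n = 2) and 1250.3 ± 15.9 in MYC-off libraries (SD, n = 3) at 200 µM, and 1091 ± 9.45 and 1785 ± 91.6 at 10 µM (SD, n = 3 each). Dnajb11 was highest in MYC-off cells at 10 µM, where it rose by 0.51 on the log2 scale. Its lower level in MYC-on cells at 200 µM (−0.12, adjusted p = 0.0200) had an adjusted p of 0.179 and 0.0546 without replicate 3 of MYC-on or of MYC-off cells there, 0.0735 with DESeq2 and 0.0520 with the replicate block. Sdf2l1 encodes a partner of these co-chaperones. Sdf2l1 stood at 131 and 129 in MYC-on and 141, 141 and 153 in MYC-off libraries at 200 µM, and at 249.6, 288 and 238 in MYC-on and 251, 250.5 and 276 in MYC-off libraries at 10 µM. All libraries at 10 µM lay above all at 200 µM, with rises of 0.98 (SE 0.11) and 0.83 (SE 0.095) in MYC-on and MYC-off cells and an interaction of 0.14 (95% interval −0.14 to 0.43). Sdf2l1 thus moved opposite to Dnajb9 and Dnajc3 in both MYC states.

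The lectin chaperones bind newly made glycoproteins. Calreticulin, encoded by Calr, changed in opposite directions in the 2 MYC states. Calr stood at 10975 and 10895 normalized counts in MYC-on and 6111, 6227 and 6469 in MYC-off libraries at 200 µM, and at 6926, 6948 and 6931 in MYC-on and 9749, 9916 and 9619 in MYC-off libraries at 10 µM. The highest groups were MYC-on at 200 µM and MYC-off at 10 µM, and no groups overlapped. Calr was 1.74-fold higher in MYC-on cells at 200 µM (log2 0.80, SE 0.031, adjusted p = 4.04e-23) and 1.41-fold lower at 10 µM (log2 −0.49, SE 0.028, adjusted p = 3.80e-18). Lower methionine moved it by −0.66 (SE 0.031) in MYC-on and 0.64 (SE 0.028) in MYC-off cells (interaction −1.30, SE 0.042, adjusted p = 9.13e-25). Canx, which encodes the membrane-bound calnexin, varied least among the 34 genes. Canx averaged 11471 ± 359.7 in MYC-on (SD, n = 2) and 10657 ± 53.6 in MYC-off libraries (SD, n = 3) at 200 µM, and 11561 ± 227 and 12171 ± 51.8 at 10 µM (SD, n = 3 each). Its interaction was −0.18 (SE 0.040), and its difference at 200 µM of 0.11 was 0.07 (adjusted p = 0.0688) without replicate 3 of MYC-on cells.

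**Figure D3:**
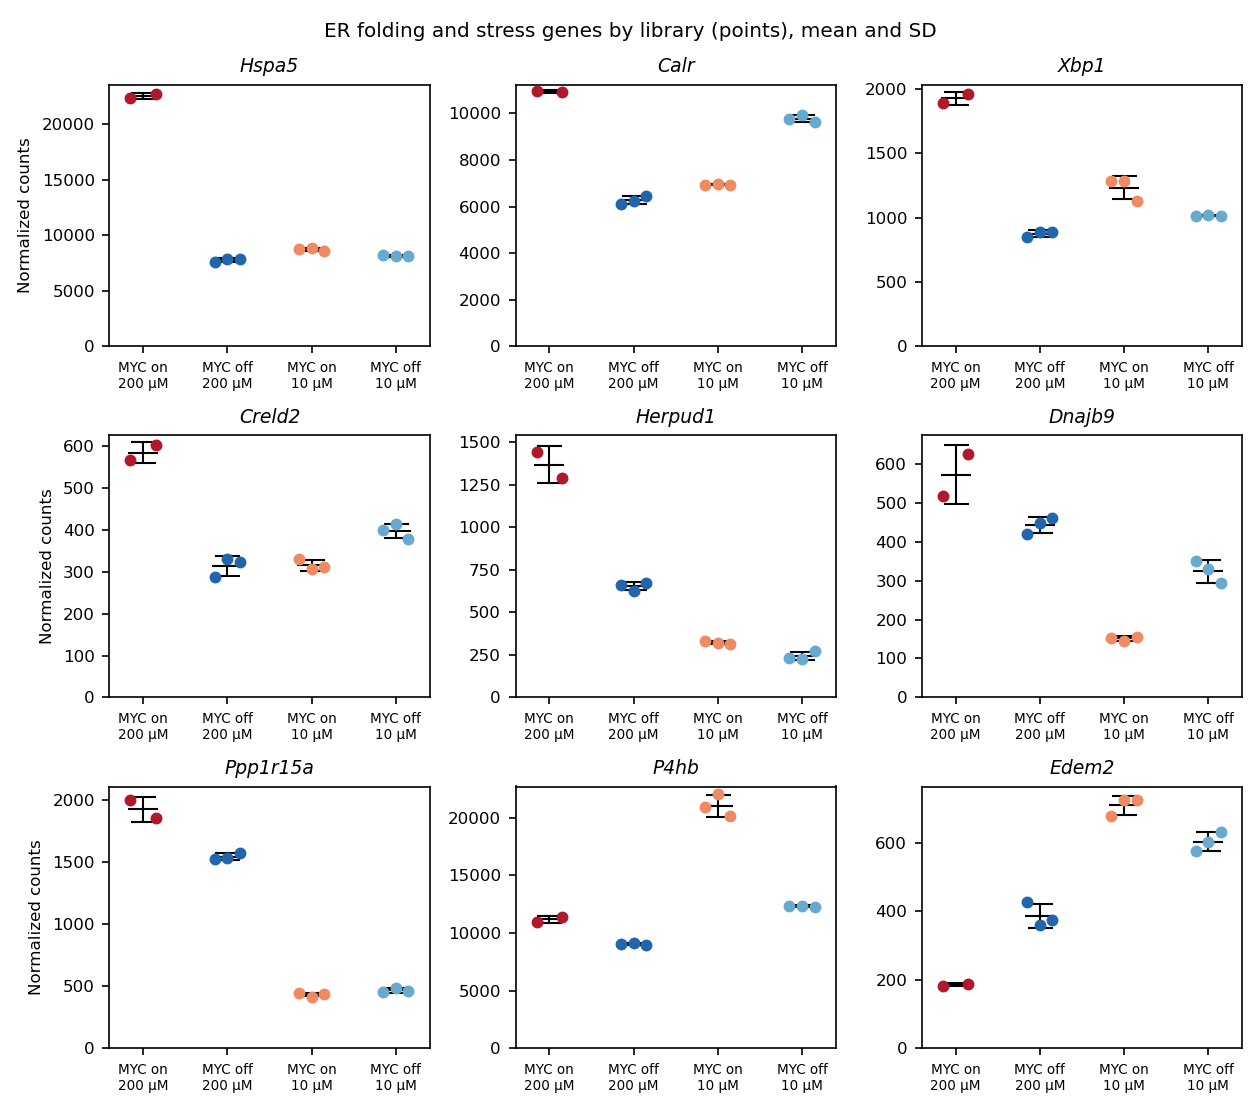
Normalized counts of 9 ER genes on linear axes from 0, with 1 point per library in 4 groups, and bars for the group mean and SD. Hspa5 stands out in MYC-on cells at 200 µM, Calr and Creld2 change in opposite directions with methionine in the 2 MYC states, Herpud1 and Ppp1r15a are low at 10 µM in both, and P4hb and Edem2 are high at 10 µM.

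Disulfide isomerases form and rearrange disulfide bonds. At 200 µM 4 of 6 were higher in MYC-on cells (36.8% of all genes tested), 1 was lower (37.6%) and 1 did not pass. P4hb, the isomerase that is also a subunit of prolyl hydroxylase, and Pdia4 went against the others at 10 µM in MYC-on cells. Normalized counts of P4hb were 10966 and 11412 (MYC-on) and 9064, 9104 and 8977 (MYC-off) at 200 µM, and 20950, 22058 and 20122 (MYC-on) and 12365, 12370.0 and 12246 (MYC-off) at 10 µM. MYC-on libraries at 10 µM stood highest and no groups overlapped. P4hb rose 1.88-fold in MYC-on (log2 0.91, SE 0.032, adjusted p = 1.65e-24) and 1.36-fold in MYC-off cells, with an interaction of 0.46, SE 0.043, adjusted p = 1.31e-11. Pdia4 stood at 1222 and 1359 in MYC-on and 1556, 1637 and 1626 in MYC-off libraries at 200 µM, and at 1744, 1654 and 1651 in MYC-on and 2024, 1917 and 2035 in MYC-off libraries at 10 µM. MYC-on libraries at 200 µM were lowest and MYC-off libraries at 10 µM highest. Pdia4 rose by 0.38 (SE 0.047) and 0.31 (SE 0.042) in MYC-on and MYC-off cells and was lower in MYC-on cells in both media (−0.32 and −0.24). At 200 µM Pdia6 stood at 3863 and 3940.1 in MYC-on and 2246, 2268 and 2312 in MYC-off libraries, against 2939, 2909 and 2821 and 2932, 2886 and 2963 at 10 µM. Pdia6 was 0.78 (SE 0.037) higher in MYC-on cells at 200 µM, while the 2 states overlapped at 10 µM (−0.02, 95% interval −0.08 to 0.05).

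Creld2 encodes a small ER protein with isomerase activity. Normalized counts of Creld2 were 567 and 603 (MYC-on) and 287, 331 and 323 (MYC-off) at 200 µM, and 331, 307 and 311 (MYC-on) and 400.4, 414 and 379 (MYC-off) at 10 µM. MYC-on libraries at 200 µM were highest, MYC-off libraries at 10 µM came next, and the other 2 groups overlapped. Creld2 was 1.86-fold higher in MYC-on cells at 200 µM (log2 0.90, SE 0.078, adjusted p = 7.18e-13) and lower there at 10 µM (−0.33, SE 0.070, adjusted p = 7.75e-05). Its methionine responses were −0.88 (SE 0.078) and 0.34 (SE 0.070) in MYC-on and MYC-off cells (interaction −1.23, SE 0.11, adjusted p = 1.33e-12). Pdia3 averaged 11573 ± 264 in MYC-on (SD, n = 2) and 9684 ± 101 in MYC-off libraries (SD, n = 3) at 200 µM, and 9389 ± 128 and 12485 ± 260.1 at 10 µM (SD, n = 3 each). Pdia3, the partner of the lectin chaperones, followed the same order of signs as Calr, with responses of −0.30 and 0.37 on the log2 scale. Dnajc10 averaged 1668 ± 30.8 in MYC-on (SD, n = 2) and 1694 ± 40.0 in MYC-off libraries (SD, n = 3) at 200 µM, and 1344 ± 60.3 and 1607 ± 60.2 at 10 µM (SD, n = 3 each). Dnajc10, a reductase that acts before degradation, fell by 0.31 in MYC-on cells, and its response in MYC-off cells was −0.08 (adjusted p = 0.107).

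Genes of ER-associated degradation, which returns misfolded proteins to the cytosol for the proteasome, were divided in direction, as were all genes tested. Of the 9 tested, 3 were higher and 4 lower in MYC-on cells at 200 µM (36.8% and 37.6% of all genes). At 10 µM 3 rose and 5 fell in MYC-on cells (37.9% of all genes in each direction). In MYC-off cells 5 rose and 4 fell (29.4% and 29.9% of all genes). Herpud1, a membrane scaffold of the degradation complex, spanned the widest range of group means of the 34 genes. Herpud1 stood at 1445 and 1291 normalized counts in MYC-on and 663, 626 and 671 in MYC-off libraries at 200 µM, and at 331, 319 and 314 in MYC-on and 233, 228 and 272 in MYC-off libraries at 10 µM. No groups overlapped, and both groups at 200 µM stood above both at 10 µM. Herpud1 fell 4.26-fold in MYC-on (log2 −2.08, SE 0.075, adjusted p = 1.86e-24) and 2.68-fold in MYC-off cells (log2 −1.42, SE 0.067, adjusted p = 3.55e-20). It was higher in MYC-on cells at 200 µM (1.06 (SE 0.075)) and at 10 µM (0.40 (SE 0.067)).

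Edem1, Edem2 and Edem3 encode mannosidase-like proteins that mark glycoproteins for degradation, and each behaved in its own way. Normalized counts of Edem2 were 182 and 188 (MYC-on) and 426, 359 and 376 (MYC-off) at 200 µM, and 676, 723 and 725 (MYC-on) and 575, 602 and 629.6 (MYC-off) at 10 µM. MYC-on libraries were lowest at 200 µM and highest at 10 µM. Edem2 rose 3.83-fold in MYC-on (log2 1.93, SE 0.074, adjusted p = 1.59e-23) and 1.56-fold in MYC-off cells, and its interaction of 1.29 (SE 0.099) was the highest of the 34 genes. At 200 µM Edem3 stood at 1125 and 1214 in MYC-on and 1082, 1057 and 1063 in MYC-off libraries, against 505, 488 and 502 and 861, 920.3 and 944 at 10 µM. The 3 MYC-on libraries at 10 µM lay lowest. Edem3 fell by 1.23 in MYC-on (SE 0.054) and 0.23 in MYC-off cells (interaction −0.99, SE 0.073, adjusted p = 2.13e-14). Its small difference at 200 µM (0.13, adjusted p = 0.0297) had an adjusted p of 0.324, 0.0688 and 0.0600 without replicate 3 of MYC-on, replicate 2 of MYC-off or replicate 3 of MYC-off cells, and 0.0742 with TMM scaling. Edem1 stood at 907 and 905 in MYC-on and 1378, 1406 and 1286 in MYC-off libraries at 200 µM, and at 1150.1, 1128 and 1102 in MYC-on and 1625, 1644 and 1656 in MYC-off libraries at 10 µM. Edem1 was lower in MYC-on cells in both media (−0.58 (SE 0.047) and −0.54 (SE 0.042)) and rose at 10 µM in both states, by 0.31 and 0.28, with no overlap of groups.

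Os9 encodes a lectin that delivers clients to the degradation complex. At 200 µM Os9 stood at 539 and 496 normalized counts in MYC-on and 1103, 1014 and 1006 in MYC-off libraries, against 699.9, 707 and 738 and 1156, 1112 and 1138 at 10 µM. MYC-on libraries lay below MYC-off ones in both media, by −1.01 (SE 0.055) at 200 µM and −0.67 (SE 0.050) at 10 µM. Os9 rose by 0.47 (SE 0.055) in MYC-on cells at 10 µM, and its rise in MYC-off cells (0.13, SE 0.050, adjusted p = 0.0271) had adjusted p of 0.0647 to 0.121 without replicate 2 or 3 of MYC-off cells at 200 µM or replicate 1 or 3 at 10 µM, and 0.0527 without a filter. Sel1l averaged 1560.2 ± 59.1 in MYC-on (SD, n = 2) and 2229 ± 17.7 in MYC-off libraries (SD, n = 3) at 200 µM, and 1343 ± 64.7 and 1834 ± 43.6 at 10 µM (SD, n = 3 each). Sel1l, the adaptor of the ubiquitin ligase, had its 2 lowest means in MYC-on cells, with differences of −0.51 and −0.45 at 200 and 10 µM. Syvn1 averaged 1129 ± 1.58 in MYC-on (SD, n = 2) and 867 ± 44.6 in MYC-off libraries (SD, n = 3) at 200 µM, and 1157 ± 30.8 and 1155 ± 7.95 at 10 µM (SD, n = 3 each). Syvn1, the ligase itself, was 0.38 higher in MYC-on cells at 200 µM and overlapped at 10 µM. Adaptor and ligase thus differed in opposite directions at 200 µM.

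The derlins form part of the exit channel. Normalized counts of Derl1 were 1782 and 1756 (MYC-on) and 1774, 1791 and 1741 (MYC-off) at 200 µM, and 1563, 1531 and 1412 (MYC-on) and 1505, 1518 and 1467 (MYC-off) at 10 µM. MYC states overlapped in each medium, with 95% intervals of the log2 difference of −0.09 to 0.09 at 200 µM and −0.08 to 0.08 at 10 µM, and Derl1 fell by 0.24 in both states at 10 µM. Derl2 averaged 761 ± 20.8 in MYC-on (SD, n = 2) and 814 ± 36.8 in MYC-off libraries (SD, n = 3) at 200 µM, and 613 ± 42.3 and 969.6 ± 16.6 at 10 µM (SD, n = 3 each). Derl2 fell by 0.31 in MYC-on cells and rose by 0.25 in MYC-off cells. Derl3, the derlin best known from secretory cells, was nearly silent outside 1 group. It stood at 8.0 and 11.7 normalized counts in MYC-on cells at 200 µM, 0.975, 0 and 1.94 in MYC-off cells at 200 µM, 0, 1.01 and 1.01 in MYC-on cells at 10 µM and 0, 0 and 1.76 in MYC-off cells at 10 µM. These rest on 18 reads in the first group and 3, 2 and 2 in the others, where 0 reads in a library allow up to 3. The ratio of the first group to the others was 10.0 (95% counting interval 2.93 to 53.1), 14.6 (3.50 to 130) and 16.3 (3.90 to 145), which covers counting error only.

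The translocon is the channel through which new proteins enter the ER. All 3 subunits were higher in MYC-on cells at 200 µM (36.8% of all genes tested). Sec61b stood at 518 and 532 normalized counts in MYC-on and 300.3, 289 and 267 in MYC-off libraries at 200 µM, and at 466, 458 and 435 in MYC-on and 357, 346 and 350.1 in MYC-off libraries at 10 µM. MYC-on libraries lay above MYC-off ones in each medium, by 0.88 (SE 0.075) and 0.37 (SE 0.067). Sec61b fell in MYC-on cells at 10 µM (−0.21, SE 0.075, adjusted p = 0.0106), with an adjusted p of 0.0698 without replicate 3 of MYC-on cells at 200 µM, and rose in MYC-off cells (0.30 (SE 0.067)). At 200 µM Sec61g stood at 861 and 871 in MYC-on and 517, 523 and 521 in MYC-off libraries, against 817, 828 and 795 and 519, 610.0 and 545 at 10 µM. Sec61g kept a difference between MYC states in both media (0.73 (SE 0.062) and 0.55 (SE 0.055)) and did not pass for methionine in either. Its interaction (−0.19, adjusted p = 0.0483) was lost in 13 alternative fits, with adjusted p of 0.0624 to 0.204: without a filter, with TMM scaling, edgeR, DESeq2 or the replicate number as a block, and in 8 of 11 fits without 1 library. The response of Sec61g in MYC-off cells passed without replicate 1 of MYC-off cells at 10 µM (0.15, adjusted p = 0.0345). Sec61a1 averaged 3260.0 ± 18.2 in MYC-on (SD, n = 2) and 2414 ± 15.1 in MYC-off libraries (SD, n = 3) at 200 µM, and 2891 ± 26.3 and 2892 ± 47.7 at 10 µM (SD, n = 3 each). Sec61a1, the pore subunit, differed by 0.43 (SE 0.036) at 200 µM and by −0.00 (SE 0.032) at 10 µM between MYC states.

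The regulatory subunits of the eIF2α phosphatase are an inducible form, PPP1R15A, also called GADD34, and a constitutive one, PPP1R15B. Ppp1r15a stood at 1995 and 1852 normalized counts in MYC-on and 1520.0, 1529.9 and 1573 in MYC-off libraries at 200 µM, and at 441, 415 and 433 in MYC-on and 451, 488 and 462 in MYC-off libraries at 10 µM. Both groups at 200 µM stood far above both at 10 µM, and no groups overlapped. Ppp1r15a fell 4.47-fold in MYC-on (log2 −2.16, SE 0.055, adjusted p = 3.94e-29) and 3.30-fold in MYC-off cells (log2 −1.72, SE 0.049, adjusted p = 7.28e-27). It was higher in MYC-on cells at 200 µM (0.32 (SE 0.055)), and at 10 µM it was −0.12 (adjusted p = 0.0306), with adjusted p of 0.107 and 0.156 without replicate 2 of MYC-on or of MYC-off cells at 10 µM, 0.0895 with edgeR, 0.131 with DESeq2 and 0.0916 with the groups compared alone. Values of Ppp1r15b were 4037 and 4080.2 (MYC-on) and 2301, 2372 and 2285 (MYC-off) at 200 µM, and 3072, 2875 and 3146 (MYC-on) and 2225, 2269 and 2188 (MYC-off) at 10 µM. MYC-on libraries lay above MYC-off ones in both media. Ppp1r15b fell by 0.42 in MYC-on cells (SE 0.039), and its response in MYC-off cells was −0.06 (adjusted p = 0.154, interaction −0.36 (SE 0.053)).

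Some of these genes overlap another annotated gene, and the sources used here do not give the strand setting of the counting, so shared reads cannot be told apart. Syvn1 (mean 1072 normalized counts) overlaps Mrpl49 (1079) on the opposite strand, Derl2 (792) overlaps Mis12 (608), and Manf (1355) overlaps Rbm15b (1016) on the same strand. Sec61a1, Hsp90b1 and Ppp1r15b overlap less abundant genes on the opposite strand. The processed copy Calr-ps averaged 0.0802 normalized counts.

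A list for the PERK branch, with no gene among the 35, had 10 tested genes. Kinase activity was not measured, so changes of these genes cannot be assigned to PERK. At 200 µM 8 were higher and 1 lower in MYC-on cells (36.8% and 37.6% of all genes tested), and at 10 µM 6 were higher and 4 lower (35.7% and 35.8%). With lower methionine 8 fell and 1 rose in MYC-on cells (37.9% of all genes in each direction), and 6 fell and 3 rose in MYC-off cells (29.9% and 29.4%). Atf3, a stress-induced repressor, had the widest span, from 3079.9 ± 58.7 (SD, n = 2) in MYC-on to 525 ± 27.8 in MYC-off cells at 200 µM and 175 ± 27.6 and 200.3 ± 14.1 at 10 µM (SD, n = 3 each). It was 2.55 higher on the log2 scale in MYC-on cells at 200 µM and −4.14 and −1.39 at 10 against 200 µM in MYC-on and MYC-off cells (interaction −2.75, adjusted p = 5.71e-21). Ddit3, which encodes CHOP, averaged 1211 ± 7.36 and 653 ± 9.15 at 200 µM and 339.9 ± 23.6 and 292 ± 23.9 at 10 µM, with responses of −1.83 and −1.16. Chac1, a glutathione-degrading enzyme, fell in both MYC states (−3.49 and −2.80 on the log2 scale), as did the pseudokinase gene Trib3 (−2.49 and −3.27), Atf4 (−0.97 and −0.80) and Sesn2 (−1.14 and −0.40). Eif2s1, which encodes eIF2α itself, fell by 0.28 in MYC-on and rose by 0.19 in MYC-off cells, and Nck1 did likewise (−0.29 and 0.21). The kinase gene Eif2ak3 was lower in MYC-on cells in both media (−0.36 and −0.46) and rose by 0.23 in MYC-off cells, and Nck2 rose by 0.28 in MYC-on cells.

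Further lists of ER genes were divided. Counts above and below 0 hold only genes whose interaction passed the threshold, as 31.0% and 29.4% of all genes tested did. Of 14 genes of translocation, signal peptidase and the receptor of the signal recognition particle, 9 were higher and 4 lower in MYC-on cells at 200 µM (36.8% and 37.6% of all genes), and 11 had an interaction below 0 and 1 above. Srpr, Srprb and Ssr2, subunits of that receptor and of the translocon-associated complex, had interactions of −1.14, −0.89 and −0.87. Of 16 genes of glycan transfer and its quality control 10 had an interaction below 0 and 4 above. The catalytic subunits of the oligosaccharyltransferase differed in sign, with −0.57 for Stt3a and 0.49 for Stt3b, and Rpn1 of the same complex had −0.58. Among 22 other degradation genes 14 had an interaction below 0 and 2 above, and those with the smallest adjusted p were Ube2g2 (−1.50), Erlin1 (−1.12) and Nploc4 (−0.64). Of 13 other chaperone co-factors 6 passed below and 4 above 0, with Serp1 at −0.88, Dnajc1 at 0.68 and Tor1a at −0.58.

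Of 19 other genes of oxidative folding and prolyl isomerisation, 6 passed with an interaction above and 6 below 0, shares near those of all genes. Ero1l, the oxidase that recharges the disulfide isomerases, averaged 3204 ± 47.6 in MYC-on (SD, n = 2) and 2258 ± 138 in MYC-off cells at 200 µM, and 10183 ± 269 and 1067 ± 28.6 at 10 µM (SD, n = 3 each). It rose by 1.67 on the log2 scale in MYC-on and fell by 1.08 in MYC-off cells (interaction 2.75, adjusted p = 5.32e-31). Calr had the opposite signs. So did Hspa5, but its rise in MYC-off cells was only 0.07 and lost its call in 6 alternative fits. P4hb, the main substrate of this oxidase, rose in both MYC states. Ero1l and P4hb thus moved alike in MYC-on and in opposite directions in MYC-off cells. The thioredoxin-like Tmx2 and Tmx4 had interactions of −0.71 and 0.72. Of 10 other ER-bound factors and proteases 6 passed above and 3 below 0. Mbtps1, the protease that makes the first cut in ATF6, rose by 1.07 in MYC-on and 0.18 in MYC-off cells, while Creb3, a factor released in the same way, fell by 0.91 and rose by 0.21. Wfs1, which encodes an ER membrane protein, was lower in MYC-on cells, with log2 differences of −1.45 at 200 µM and −0.92 at 10 µM.

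Levels were compared between genes per kilobase of the longest annotated transcript, scaled to the same total in each library. Hspa5, Calr, Pdia3, P4hb, Canx and Hsp90b1 held the top 6 places among the 35 genes in all 4 groups, in changing order. In MYC-on cells at 200 µM Hspa5 led with 1216 ± 14.7 (SD, n = 2), before Calr with 994 ± 5.87 and Pdia3 with 829 ± 18.3, and no neighbours overlapped down to Xbp1 in the ninth place. In MYC-off cells at 200 µM Pdia3 led with 769.8 ± 8.50 and Hspa5 was the fifth with 466 ± 10.5 (SD, n = 3). P4hb led in MYC-on cells at 10 µM with 1469 ± 39.5, where Hspa5 was the sixth with 474 ± 2.47. In MYC-off cells at 10 µM Pdia3 (1018 ± 16.4) and Calr (1009.6 ± 12.7) overlapped at the top, as did Hsp90b1 (503 ± 6.42) and Hspa5 (501 ± 2.93). Sensor mRNAs were low, Atf6 at 33.3 ± 1.15 and Ern1 at 36.2 ± 2.15 in MYC-on cells at 200 µM, and Derl3 was last in every group. Of 34 neighbouring pairs in the order, 15 overlapped in MYC-on and 16 in MYC-off cells at 200 µM, and 10 and 16 at 10 µM. With the median transcript length the same 6 genes led in all groups, but their order changed. Canx moved to the first place in both MYC-off groups and to the second place in both MYC-on groups, and Calr to the fifth place in all groups. Hspa5 stayed first in MYC-on cells at 200 µM and moved to the third place in MYC-off cells at 200 µM and MYC-on cells at 10 µM and to the fourth in MYC-off cells at 10 µM.

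**Figure D4:**
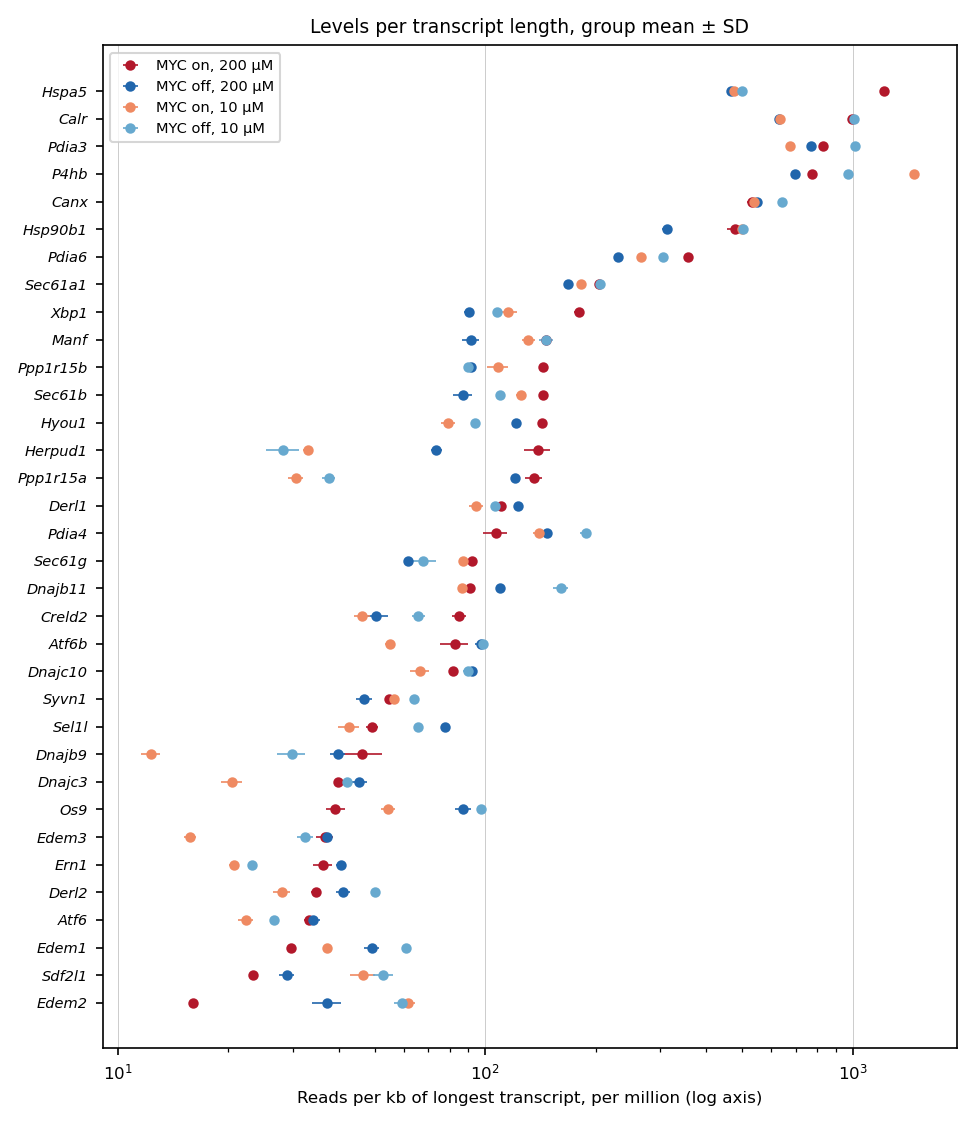
Reads per kilobase of the longest transcript, scaled to the same total in each library, on a log axis for 34 ER genes, ordered by their level in MYC-on cells at 200 µM, with points for group means and bars for SD. Colours mark the 4 groups. Herpud1, Ppp1r15a, Edem2, Dnajb9 and Hspa5 show the widest spread between groups, while the points of Canx and Derl1 lie close together.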

How the data were processed

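Polyadenylated RNA of 11 libraries was measured. Per the labels' protocols, RNA came from a Qiagen kit and libraries from NEBNext Ultra II reagents. The authors deposited 1 signal value per gene and library, described as normalized counts. For how they were made, the submitters' processing notes name the build GRCm39 and, among tools, STAR, HTSeq, DESeq2, FastQC, fastp and SAMtools. The sources used here do not give versions, strand setting or annotation release. Dividing by each library's step (size factors 0.875 to 1.13) gave whole reads for 100% of values within 0.001.

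Symbols and transcript lengths came from GENCODE M21, of the earlier build GRCm38. The only coordinates printed are those of the promoter stretches, which belong to GRCm38.p6 and not to the GRCm39 of the processing notes. Of 55416 identifiers 52083 had a symbol. Promoter windows came from RefSeq, build GRCm38.p6, and were searched for exact letters on both strands.

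Values were taken as log2 of the signal plus 1, which understates differences of genes with low values. Genes with a mean of at least 10 were fitted in R 4.3.3 by limma 3.58.1 with a mean for each group and its trend option. The fit had 7 residual degrees of freedom and 29.0 from the prior. P-values were adjusted after Benjamini and Hochberg over 12909 genes in each comparison, with a threshold of 0.05. Every adjusted p in the text is limma's unless another tool is named, and the spread is pooled over groups. Each fit was first tested on simulated counts. A library with 0 reads of a gene allows up to 3 reads, or 2.65 to 3.43 normalized counts, for counting error only. Alternatives were a pseudocount of 5, no filter, TMM scaling, edgeR 4.0.16 and DESeq2 1.42.0 on recovered reads, only the groups compared, a replicate block and each library left out.

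The 35 genes, the other lists and the rule for naming genes were chosen with earlier results of these data known. The rule gives values by library for 22 genes fixed by name and for the 3 largest differences in each direction and comparison, all genes of the PERK list, and up to 3 genes of each other list, here those with the smallest adjusted p of the interaction.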

Additional observations from a re-analysis of the deposited data

Results flagged for a closer look

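The methionine response differed between MYC states for 28 of the 34 tested genes by limma's interaction term, where 60.4% of all genes passed. Values are the log2 response to 10 against 200 µM methionine in MYC-on cells minus that in MYC-off cells. The response lay furthest below in MYC-on cells for Dnajb9 −1.45, Hspa5 −1.43, Calr −1.30, Creld2 −1.23, Edem3 −0.99, Xbp1 −0.86, Dnajc3 −0.82, Manf −0.82 and Pdia6 −0.80. It also lay below for Pdia3 −0.67, Herpud1 −0.66, Hsp90b1 −0.60, Dnajb11 −0.59, Atf6b −0.57, Derl2 −0.57, Sec61b −0.51, Hyou1 −0.45, Ppp1r15a −0.44 and Sec61a1 −0.43. The smallest differences below 0 were Syvn1 −0.38, Ppp1r15b −0.36, Dnajc10 −0.24, Atf6 −0.20, Sec61g −0.19 and Canx −0.18. It lay above in MYC-on cells for Os9 0.34, P4hb 0.46 and Edem2 1.29. The difference of Sec61g was lost in 13 alternative fits, among them those without a filter, with TMM scaling, edgeR, DESeq2 and the replicate block, and that of Atf6 in 2 fits without 1 library.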

How the results depend on the processing

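Counts of ER genes called moved little under the 18 alternatives. At 200 µM 17 to 21 were higher and 5 to 7 lower in MYC-on cells, and at 10 µM 9 were higher and 15 to 16 lower. With lower methionine 6 to 7 rose and 22 to 24 fell in MYC-on cells, and 18 to 20 rose and 9 to 10 fell in MYC-off cells. The interaction was above 0 for 3 and below 0 for 23 to 25. All 356 recomputed counts, over ER genes and over all genes, stayed within 1.5 times. The count of 17 came without replicate 3 of MYC-on cells at 200 µM, a fit that leaves that group 1 library, assumed to vary like the others. Of 3026 recomputed differences of single ER genes 51 lost and 3 gained the call, and none that was called changed sign. The other 2972 kept their side of the threshold, and among them 42 that passed in neither fit changed sign, in 10 genes. Many of these fits could not move a difference between 2 groups. Leaving out a library of another group, dropping the filter or fitting the groups compared alone changes only its spread or adjustment. The totals therefore overstate how far the differences were tried. TMM scaling cost 4 calls, DESeq2 4, edgeR 3, no filter 4 and the groups compared alone 1, and the cause was not tested. On the recovered reads edgeR called 9583 and 9386 of all genes between MYC states at 200 and 10 µM, 9718 and 7915 between media in MYC-on and MYC-off cells, and 7757 for the interaction. A pseudocount of 5 changed no call. Libraries of different groups share only a replicate number. With that number as a replicate block, 20 ER genes were higher and 5 lower in MYC-on cells at 200 µM, 9 and 16 at 10 µM, 6 rose and 23 fell in MYC-on and 20 rose and 10 fell in MYC-off cells, and the interaction was above 0 for 3 and below for 24. Same-numbered libraries deviated together with correlations across genes of −0.049 to 0.0257, and 2 of 11 correlated best with their own number. Ratios of Derl3 rest on 2 to 18 reads per group, so depth limits them.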
